A study of Mus musculus with 4 samples.

Results

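INDELs of 1 or 2 bp are the shortest insertions and deletions found where a donor DNA was joined to the cleaved *albumin* (m*Alb*) gene in the mouse liver. They were taken from the deposited lists of INDELs of 2 libraries of PCR products that span such junctions, as every insertion or deletion of length 1 or 2 that had a read count, with no minimum frequency. This gave 189 of the 1127 listed entries, an entry being the number of reads with an insertion or a deletion of a given length at a given position. Of these, 74 of 359 were in library 1 and 115 of 768 in library 2.

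The libraries were made from 1 liver of a C57BL/6J mouse treated with AAV8 vectors for homology-independent targeted integration (HITI) and harvested 30 days after injection. For the DsRed donor, livers were treated through the temporal vein at post-natal day 1 to 2 with 4e13 genome copies/kg of each vector. A first vector encoded SpCas9 under HLP, a liver-specific promoter meant to limit expression to the target tissue. A second vector carried the gRNA cassette and a promoterless donor DNA with the DsRed reporter. Library 1 covered the 5′ junction and library 2 the 3′ junction. The sample labels give the tissue only, and each junction was named from the most frequent base at each position of its library. Depth, read at the nucleotide just before the cleavage site, was 119189 reads in library 1 and 426390 in library 2. Negative control tissues gave no PCR product according to the series' design text, and no control library was analysed here.

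SpCas9 cuts both DNA strands near the PAM, and non-homologous end joining (NHEJ) ligates the ends with little or no use of homology. In HITI the same gRNA cuts the gene and the target sites that flank the donor DNA in inverted orientation, so that a precise join leaves a junction that the gRNA no longer matches. Small insertions and deletions are known to arise when ends are filled in or trimmed before ligation, and in a coding exon an INDEL of this length shifts the reading frame. The paper's donor DNA carries STOP codons in every reading frame ahead of its own start site. They are meant to block the endogenous gene whatever the precision of the join. m*Alb* encodes the main protein of blood plasma and is highly expressed in hepatocytes.

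The target site is shown first, in the GRCm39 build and on the plus strand, because each INDEL is placed relative to the cleavage site within it. In m*Alb* (ENSMUSG00000029368.12) target site and PAM spanned chr5:90609580-90609602 in coding exon 2, with cleavage between 90609596 and 90609597, after 96 of 1824 coding nt. Capitals mark the PAM.
m*Alb* target site: acaagagtgagatcgcccatCGG

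The expected junctions are given because the nucleotides around the join decide where an INDEL can be placed. Lower case is the mouse gene and capitals are the target-site part of the donor DNA, so that the cleavage site lies where the case changes.
m*Alb* 5′ junction: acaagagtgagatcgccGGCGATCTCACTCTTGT
m*Alb* 3′ junction: CCGATGcatcggtataatgattt

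Distances are counted from the cleavage site in these sequences. An insertion at 0 stands between gene and donor, and a deletion at 0 begins with the first nucleotide after the cleavage site. Negative distances lie before the cleavage site, which is the gene side at the 5′ junction and the donor side at the 3′ junction. The deposited position was read as the nucleotide before the INDEL. For deletions this reading was checked against the gaps counted at each position, and for insertions it could not be checked in the same way. Shares are percentages of the depth unless another denominator is named, and ranges in parentheses are 95% Wilson intervals. Reads of a PCR product lack molecular identifiers and many can stem from the same molecule, so intervals cover counting error only. Each junction was sequenced in 1 library, without replicates, and the libraries are set side by side with no test between them.

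In library 1, 4.49% of the reads (4.37 to 4.60) had a short insertion, and in library 2 this share was 18.3% (18.2 to 18.4). Short deletions were present in 3.83% (3.72 to 3.94) and 3.77% (3.71 to 3.82), respectively. With the paper's minimum frequency of 0.5% these deletion shares were further apart, at 2.85% and 2.32%. The deletion share of library 1 rests on a list that summed to 2 times the deletions counted per position and was divided by 2, and as deposited the list gave 7.66%. Insertions made up 53.9% (53.0 to 54.9) of the reads with an INDEL of 1 or 2 bp in library 1 and 82.9% (82.7 to 83.2) in library 2. With the list as deposited the share of library 1 was 36.9%, so that deletions were then the larger kind, an alternative chosen after seeing the data. Reads that carry several INDELs enter at every position.

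A length of 1 bp was more frequent than 2 bp for both kinds of INDEL in both libraries. Insertions of 1 bp were found in 3.40% (3.30 to 3.50) and 16.2% (16.1 to 16.3) of the reads in libraries 1 and 2, and insertions of 2 bp in 1.08% (1.03 to 1.15) and 2.09% (2.05 to 2.14). Deletions of 1 bp were found in 2.96% (2.87 to 3.06) and 2.61% (2.57 to 2.66), and deletions of 2 bp in 0.866% (0.815 to 0.920) and 1.15% (1.12 to 1.18). The 1-bp length thus held 75.8% of the short insertions and 77.4% of the short deletions at the 5′ junction, against 88.6% and 69.4% at the 3′ junction.

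**Figure D1:**
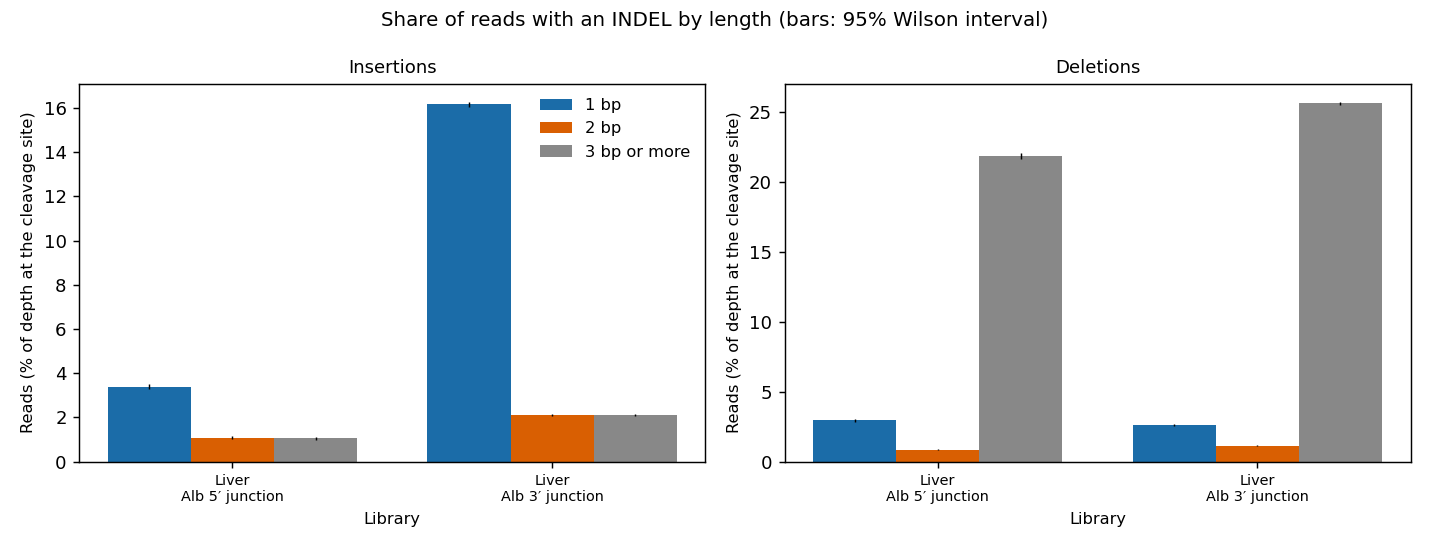
Share of reads with an insertion (left) or a deletion (right) of 1 bp, 2 bp and 3 bp or more, as a percentage of the depth at the cleavage site, for both libraries; error bars are 95% Wilson intervals. Insertions of 1 bp reach 16.2% of the reads at the 3′ junction, and deletions of 3 bp or more, at 21.9% and 25.6%, exceed the shorter ones in both libraries.

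Few entries held most of the reads with a short insertion. In library 1, 2729 reads had 1 bp at the cleavage site, 1018 had 1 bp at -2 and 772 had 2 bp at the cleavage site. Behind them came 2 entries of 2 bp, at -1 with 271 reads and at -2 with 195 reads. In library 2, 36521 reads had 1 bp at the cleavage site, and 30427 had 1 bp at -1, which is on the donor side. They were followed by 2 bp at the cleavage site with 6589 reads, 2 bp at -1 with 1594 reads and 1 bp at -2 with 580 reads. The 3 leading entries held 84.5% (83.5 to 85.5) of the reads with a short insertion in library 1 and 94.4% (94.2 to 94.6) in library 2.

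Over all entries of library 1, 65.5% (64.2 to 66.8) of the reads with a short insertion carried it exactly between gene and donor, and for library 2 this was 55.3% (55.0 to 55.7). Allowing a distance of up to 2 nt brought these shares to 95.7% (95.1 to 96.2) and 98.4% (98.3 to 98.4). The ratio of 1-bp to 2-bp insertions at the cleavage site was 3.53 in library 1 and 5.54 in library 2. Within 5 nt of the cleavage site this order turned at 1 place, at -1 of the 5′ junction between the paired C, where 271 reads had 2 bp and 26 reads had 1 bp.

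**Figure D2:**
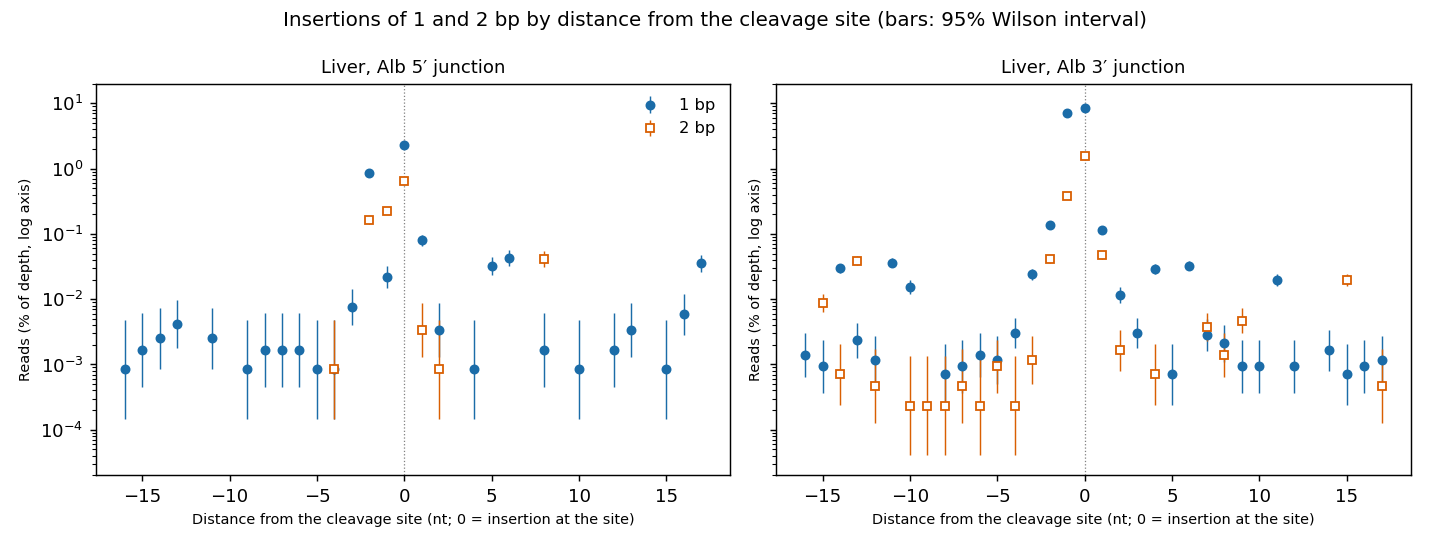
Insertions of 1 bp (filled circles) and 2 bp (open squares) by distance from the cleavage site in nt, as a percentage of the depth on a log axis, with 95% Wilson intervals; 1 panel per library, and positions with no listed read have no point. The highest point is at the cleavage site in both panels, at 2.29% and 8.57%, and in the 3′ junction the insertion at -1 is close to it, at 7.14%.

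Neighbouring bases set where an inserted nucleotide can be written. In a run of identical bases an added copy can stand at any place of the run, and 1-bp deletions within runs stood at the first place in 99.8% of the reads in library 1 and in 84.6% in library 2. In library 1, 1980 and 1415 of these 3410 reads were at the pairs beside the cleavage site, so distant runs added few. The share of library 2 includes 38 reads at +17, the last listed position. The later places of that run of G lie outside the list, so these reads could only be counted at the first. With the first place as the rule for insertions too, an added base equal to the one just before the cleavage site is written further left. This place is -2 at the 5′ junction, where the gene ends in a pair of C, and -1 at the 3′ junction, where the donor ends in a single G. The other bases stay at the cleavage site. The lists do not give the inserted base, so a count at these places can also hold insertions of other bases.

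The place of the repeated base held 25.1% (23.8 to 26.5) of the reads with a 1-bp insertion in library 1 and 44.1% (43.7 to 44.5) in library 2. Together with the cleavage site itself it accounted for 92.5% (91.6 to 93.2) and 97.0% (96.9 to 97.2) of the 1-bp insertions. The base counts at the last donor nucleotide of the 3′ junction held 1 particular base other than the most frequent one in 3.56% of the reads.

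Among deletions, the leading entries of the 5′ junction removed nucleotides from the paired bases on either side of the cleavage site. In these, 1980 reads lost a C of the pair that ends the gene and 1415 reads lost a G of the pair that opens the donor. Whole pairs were lost in similar numbers, with 510 reads (0.392% to 0.467% of the depth) for GG and 487 reads (0.374% to 0.446%) for CC. The next deletion, of 1 bp at +8, had 43 reads.

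The nucleotides next to the cleavage site belong to no run at the 3′ junction. There, 6104 reads lost the last donor nucleotide and 3798 reads the first nucleotide of the gene. Deletions of 2 bp followed, with 1213 reads for the last 2 nucleotides of the donor, 1002 reads for the first 2 of the gene and 885 reads at -3, which leaves the last donor nucleotide in place. A nucleotide from each side was lost in 21 reads, and in 5 reads at the 5′ junction, so that 2-bp deletions removed nucleotides of the gene or of the donor and rarely of both.

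**Figure D3:**
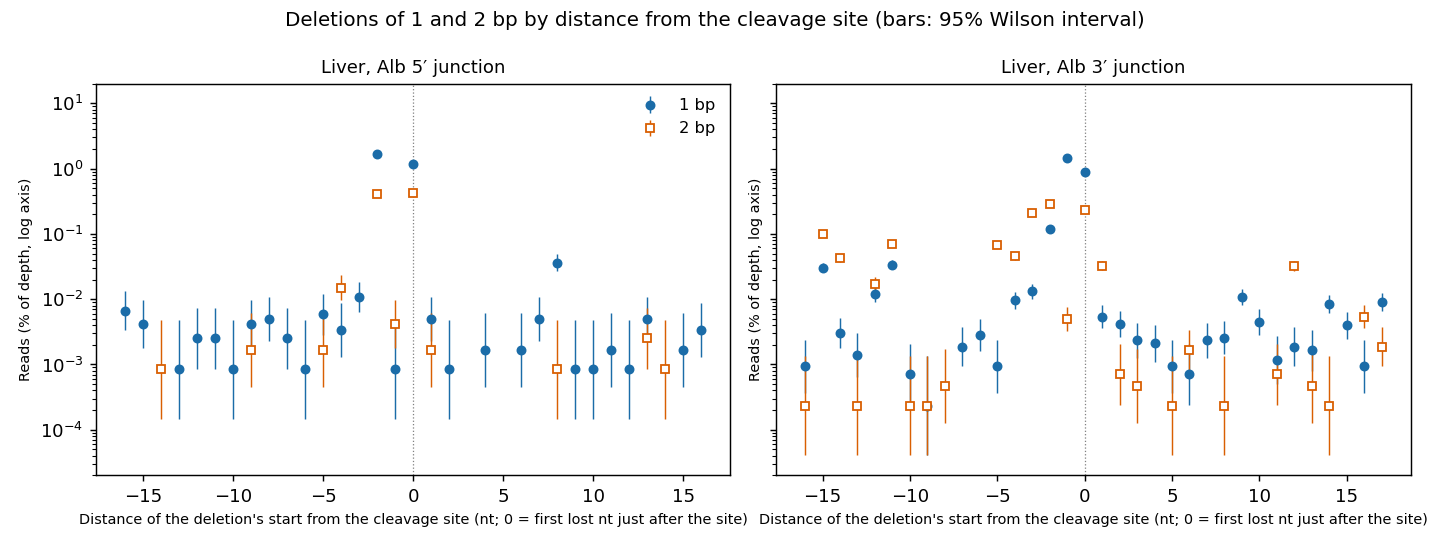
Deletions of 1 bp (filled circles) and 2 bp (open squares) by the distance of their start from the cleavage site in nt, as a percentage of the depth on a log axis, with 95% Wilson intervals; 1 panel per library, and counts of library 1 are divided by 2. The highest points lie within 2 nt of the cleavage site, and the 3′ junction has further 2-bp deletions on the donor side, such as 0.0985% at -15.

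As aligned, a nucleotide adjoining the cleavage site was lost in 53.0% (51.5 to 54.4) of the reads with a short deletion in library 1 and in 75.6% (74.9 to 76.3) in library 2. A deletion within a pair of bases leaves the same sequence whichever copy is removed. When any such placement was accepted, the share rose to 96.5% (95.9 to 97.0) in library 1 and kept its value in library 2. The order of the libraries thus turned with the placement.

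The sides of the cleavage site were not used equally. Short insertions away from the cleavage site fell on the gene side in 28.9% and on the donor side in 5.65% of the reads with a short insertion at the 5′ junction. For the 3′ junction the donor side held 43.0% and the gene side 1.66%. Insertions were thus placed before the cleavage site more often than after it in both libraries, which is the side that leftward writing would favour, and whether insertions were written leftward could not be checked. Deletions removed nucleotides of the gene only in 55.9% (54.4 to 57.3) of the reads with a short deletion in library 1 and in 33.6% (32.9 to 34.3) in library 2. Nucleotides of the donor only were removed in 44.0% (42.6 to 45.5) and 66.3% (65.5 to 67.0).

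**Figure D4:**
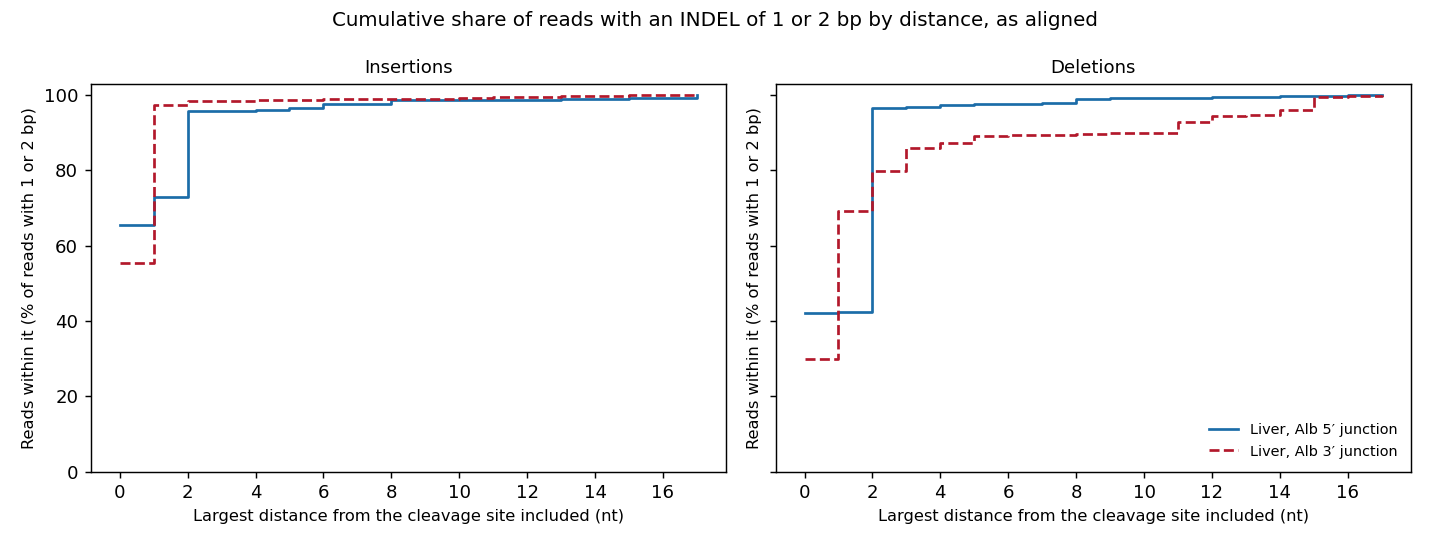
Share of the reads with an insertion (left) or a deletion (right) of 1 or 2 bp that lie within a given distance of the cleavage site in nt, in either direction and as aligned, for both libraries. Within 2 nt insertions reach 95.7% and 98.4%, and deletions reach 96.5% at the 5′ junction, but 79.9% for the 3′ junction. The distance of a deletion is that of its start, which treats the sides of the cleavage site unequally. The 2-bp deletion at -3 of the 3′ junction, with 885 reads, thus counts as more than 2 nt away.

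More than 5 nt away from the cleavage site entries were numerous but low. Insertions of 1 bp there had a median of 2 reads over 17 entries in library 1 and of 6 reads over 21 entries in library 2. Deletions of 1 bp had medians of 3 reads over 20 entries and 10.5 reads over 22 entries. As shares of the depth these medians were between 0.00141% and 0.00252%. A count of 3 reads was set as a limit, without an estimate of PCR or sequencing errors. It equals 0.00252% of the depth in library 1 and 0.000704% in library 2. Most distant entries of library 1 were at or below this limit. Of its 29 entries for 1-bp deletions, 12 had fewer than 3 reads.

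Some distant entries stood well above this level, and all but the deletion at +8 were chosen for naming after their values were seen. In library 1 they were insertions of 1 bp at +6 with 51 reads and at +17 with 42, an insertion of 2 bp at +8 with 49, and the deletion of 1 bp at +8 with 43, all on the donor side. In library 2 the distant 2-bp deletions summed to 1161 reads over 17 entries, more than the 576 reads of 1-bp deletions over 22 entries, whereas by the median the 2-bp deletions were lower, with 3 reads against 10.5. Over all distances 1-bp deletions were the larger class. The largest of the distant 2-bp deletions, which held most of the 1161 reads, began at -15 with 420 reads, at -11 with 298 and at -14 with 181, on the donor side, and at +12 with 137 on the gene side. Distant insertions of library 2 were led by 2 bp at -13 with 165 reads and by 1 bp at -11 with 155, at +6 with 139 and at -14 with 126.

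The start of a run of identical bases can collect deletions of each base of the run, and its counts of distant 1-bp deletions can be higher by this placement alone. There the median was 5 reads over 3 positions in library 1, against 2 reads over 17 positions at bases outside runs. In library 2 it was 38 reads over 5 positions against 8 reads over 12. The reads at the starts alone, divided by the length of the run, had medians of 2.5 and 12.7 per base. Reads at later places of the runs were left out, such as 19 at +10 and 17 at +15 in library 2. The value of library 2 is therefore lower than it would be for whole runs. The highest count, 144 reads, was at the start of a run of 4 G of the donor at -11. For 1-bp insertions the corresponding medians were 4 and 1 reads in library 1 and 6 and 7.5 in library 2. Positions of a library are few and are not replicates.

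Compared with INDELs of 3 bp or more, the short ones were the larger class of insertions and the smaller class of deletions. Short insertions made up 81.0% (80.0 to 81.9) of all reads in the insertion list of library 1 and 89.6% (89.4 to 89.8) in that of library 2. Short deletions made up 14.9% (14.5 to 15.3) and 12.8% (12.6 to 13.0) of the deletion lists. Insertions of 3 bp or more were at the cleavage site in 38.2% (35.5 to 40.9) of their reads in library 1 and in 31.8% (30.9 to 32.8) in library 2, both below the shares of the short ones. With any placement that leaves the same sequence, longer deletions lost a nucleotide adjoining the cleavage site in 97.3% (97.1 to 97.5) and 95.2% (95.1 to 95.3) of their reads, against 96.5% and 75.6% of the short ones. As aligned, longer deletions did so in 91.8% (91.4 to 92.1) and 72.8% (72.6 to 73.1), against 53.0% and 75.6%, so that in library 2 the order of longer and short deletions turned with the placement. A longer deletion covers more nucleotides and reaches the cleavage site from more places, which was not corrected for.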

How the data were processed

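PCR products of the HITI junctions of 1 liver were sequenced on a MiSeq by the authors, converted with bcl2fastq 2.20.0.422, trimmed with Cutadapt 1.9 and aligned to the expected edited sequence with BWA-SW 0.7.10. The authors deposited raw per-position read counts from deepSNV 1.30.0 and lists of read counts per INDEL length and position from an R algorithm of their own. No normalization was applied. INDELs in repeats have no unique place, and INDELs beyond the lists are missed. Libraries from the other tissue of the series are not reported here.

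Every entry of length 1 or 2 was used, and the members and lists were chosen with earlier results of these data known. Deletions of library 1 were divided by 2, since all values were even. Lists reached 17 nt before and after the cleavage site. The denominator was the depth (bases, gaps and low-quality bases) at the nucleotide just before the cleavage site, and low-quality bases made up 13.3% of it in library 1 and 6.20% in library 2. The cleavage site was found by exact match to GRCm39 with GENCODE M39, as no build is named for this alignment. With the position read as the nucleotide before a deletion, predicted and counted changes in gaps deviated by 8.66% and 23.9% in libraries 1 and 2, and by 140% and 73.2% with the first deleted nucleotide in its place. Named are, in each library, the 5 insertions and 5 deletions of 1 or 2 bp with the most reads and every such entry at the cleavage site. Others were named after their values were seen. Intervals are 95% Wilson intervals, and their calculation was checked on reads drawn independently from the observed shares. Such draws hold no PCR copies, so the check bears on the calculation only. No test between libraries was made, because each junction has 1 library. Alternatives covered the denominator, the minimum frequency of the paper (0.5%), the distance, the length, the placement and the undivided list. Python 3.11.15, numpy 2.4.6, pandas 2.3.3, scipy 1.17.1 and matplotlib 3.10.9 were used.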

Additional observations from a re-analysis of the deposited data

Results flagged for a closer look

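A particular base other than the most frequent one was counted in at least 1% of the reads at 1 nucleotide within 5 nt of a cleavage site, a limit chosen after the data were seen. This was the last donor nucleotide of the m*Alb* 3′ junction, with 3.56% of the reads (3.51 to 3.62). The reads with this other base are part of the depth at this nucleotide, which is the denominator of the INDEL shares of the depth at this junction. The INDEL reads themselves were taken from the lists and not from these base counts. The 1-bp insertion at -1, found in 7.14% of the reads, and the 1-bp deletion at -1, found in 1.43%, adjoin or remove this nucleotide. Whether the same reads carry both cannot be told from counts per position, and the part of these bases in the INDEL counts was not tested.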

How the results depend on the processing

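No paired analysis was possible because each junction has 1 library and no test was made. Of 29 alternatives fixed at the start, 6 stayed within the 95% interval of the main value and 23 left it. The intervals are narrow at this depth and leave out the spread between animals and PCRs, so small moves exceed them.

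The share of reads with a short insertion in libraries 1 and 2 became 3.79% and 17.2% with the paper's minimum frequency, and 4.33% and 18.0% within 5 nt of the cleavage site. In library 2 it was 17.8% with the median depth and 16.3% with the highest depth. The share with a short deletion became 2.85% and 2.32% with the minimum frequency. In library 2 it was 3.36% within 5 nt, 3.66% with the median depth and 3.36% with the highest depth. The deposited list of library 1 gave 7.66%. An alternative chosen after seeing the data used this list for the share of insertions among the short INDELs of library 1, which went from 53.9% to 36.9%.

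The share of short insertions at the cleavage site became 77.5% and 58.6% with the minimum frequency, 67.3% and 52.9% with 1 bp only, and 95.7% and 98.4% when placed at most 2 nt away. The share of short deletions next to the cleavage site became 41.7% and 100% with the minimum frequency, which left only 2 entries in each library, and 40.1% and 88.8% with 1 bp only. With any equal placement it was 96.5% in library 1.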

Other observations

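Lists and per-position counts were close in sum, with a list-to-count ratio between 0.988 and 1.00 once the deletions of library 1 were divided by 2, but differed at single positions of the m*Alb* 3′ junction. For insertions of any length the list held 1218 reads at -2 and the counts 2490, and at +1 they held 847 and 596. Within 3 nt of the cleavage site the gap of insertions was widest in proportion at +3, with 263 reads in the list and 20 in the counts, and at -3 these were 323 and 151. For deletions at +1 they held 399 and 260. At the cleavage site itself they held 45997 and 46595 reads with an insertion.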
